A study of Mus musculus with 160 samples.

Results

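The AP-1 family studied here was made up of 8 genes, the Fos genes Fos, Fosb, Fosl1 and Fosl2, the Jun genes Jun, Junb and Jund, and Atf3. They were taken by symbol, and 8 of 8 were found among the 39179 genes of the count table. RNA had been sequenced from 4 tissues (striatum, cortex, cerebellum and liver) of R6/2 mice and of wild-type (WT) mice. R6/2 mice carry the transgene Tg(HDexon1)62Gpb, the first part of human huntingtin with a long CAG repeat, driven by the human gene's own promoter. In each tissue the groups were R6/2 mice given CHDI-00340246, R6/2 mice given vehicle, WT mice given CHDI-00340246 and WT mice given vehicle. All mice were 12 weeks old and on the C57BL/6J background per the labels. CHDI-00340246, an inhibitor of kynurenine 3-monooxygenase, was given by mouth as 1 dose of 10 mg/kg, the vehicle was hydroxypropyl-beta-cyclodextrin in citrate buffer, and tissue was taken 6 h after dosing. The 4 tissues gave 16 groups of 10 libraries, 5 from females and 5 from males. The labels do not say which libraries of different tissues came from the same animal, and p-values measure the spread between these libraries.

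AP-1 is a dimer of basic leucine zipper proteins that binds short DNA elements and changes the transcription of nearby genes. Fos proteins cannot pair with each other and bind DNA together with a Jun protein, whereas Jun proteins can also pair among themselves, and Atf3 can replace Fos in a pair with Jun. Most of these genes are immediate early genes, silent or low at rest and induced within minutes of synaptic activity, growth factors or stress, so that their RNA in brain tissue depends on what the cells were doing shortly before the tissue was taken. Sustained Jun and Atf3 expression is best known from injured neurons, and in the liver the same genes are induced by injury, stress and regeneration.

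The genes lie on separate loci of GRCm38, as annotated in GENCODE M21. Fos is at chr12:85473890-85477273 on the forward strand, Fosb at chr7:19302696-19310051 on the reverse strand, Fosl1 at chr19:5447547-5455946 and Fosl2 at chr5:32135801-32157842, both on the forward strand. Jun is at chr4:95049034-95052222 and Junb at chr8:84974484-84978718, both on the reverse strand, Jund is at chr8:70698949-70700616 on the forward strand, and Atf3 is at chr1:191170296-191218039 on the reverse strand. A gene on the opposite strand overlaps 5 of the 8, namely Ccdc85b with Fosl1 over 2767 bases, Junos with Jun over 689, Prdx2 with Junb over 351, Gm11175 with Jund over 919 and Gm24748 with Atf3. Whether the counting used strand is not given in the sources used here, so the values of these 5 genes are uncertain to that extent. Prdx2 was the most abundant partner, the level of Ccdc85b is given with that of Fosl1, and Gm24748 was listed at 0 in every library.

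The promoters of 4 members are shown because Fos and Junb were lower in R6/2 in the 3 brain tissues and Jun and Atf3 were higher in R6/2 cerebellum, and because they carry different matches to short motifs. RefSeq sequences of build GRCm38.p6 from 250 bases before to 50 bases after the transcription start were given for 7 of the 8 members, Fosl1 being the other. Capitals mark the core TGACG of the cAMP response element in Fos and Junb and on the reverse strand of Atf3, where it reads CGTCA, the site TGACATCA of the Jun promoter, and the letters TATAAA in Fos and Junb. The windows are chr12:85473640-85473939 (forward strand), chr8:84978699-84978998, chr4:95052173-95052472 and chr1:191183284-191183583 (all reverse strand), each written 5′ to 3′ on the strand of the gene.
Fos: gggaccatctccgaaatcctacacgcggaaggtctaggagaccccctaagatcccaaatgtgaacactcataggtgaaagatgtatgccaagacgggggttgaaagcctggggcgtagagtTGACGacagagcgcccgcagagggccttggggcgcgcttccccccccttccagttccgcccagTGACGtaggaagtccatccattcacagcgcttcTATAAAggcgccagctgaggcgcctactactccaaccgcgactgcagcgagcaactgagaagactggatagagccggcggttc
Junb: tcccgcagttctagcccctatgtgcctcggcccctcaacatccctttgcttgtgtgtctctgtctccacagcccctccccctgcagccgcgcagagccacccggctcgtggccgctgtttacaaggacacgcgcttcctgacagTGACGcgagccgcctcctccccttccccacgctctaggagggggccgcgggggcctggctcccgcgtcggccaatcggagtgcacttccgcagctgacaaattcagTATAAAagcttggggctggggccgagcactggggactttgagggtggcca
Jun: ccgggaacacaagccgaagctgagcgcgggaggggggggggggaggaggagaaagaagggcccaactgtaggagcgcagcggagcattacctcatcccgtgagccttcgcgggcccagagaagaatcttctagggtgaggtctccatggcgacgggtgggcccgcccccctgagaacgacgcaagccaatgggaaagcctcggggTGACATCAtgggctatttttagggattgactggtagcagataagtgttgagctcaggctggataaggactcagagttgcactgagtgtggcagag
Atf3: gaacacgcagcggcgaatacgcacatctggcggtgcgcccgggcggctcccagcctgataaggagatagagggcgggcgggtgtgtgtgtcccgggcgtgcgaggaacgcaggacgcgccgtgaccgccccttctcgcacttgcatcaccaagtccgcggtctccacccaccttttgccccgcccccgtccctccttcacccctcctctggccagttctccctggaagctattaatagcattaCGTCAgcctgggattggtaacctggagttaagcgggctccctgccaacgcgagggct

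Fos held the core TGACG at -129 to -125 and again at -66 to -62 and TATAAA at -33 to -28, counted from the RefSeq start of the window. Junb held the core TGACG at -106 to -102 and TATAAA at 1 to 6, on the RefSeq start. The GENCODE 5′ end of Junb, 84978718, lies further downstream in this window, so TATAAA lies before that end. Jun held TGACATCA at -45 to -38, and Atf3 held the core TGACG at -7 to -3 together with 5 matches of the SP1 site GGGCGG. Both strands were searched. Across 32851 mouse promoters of the same length the core TGACG occurred in 20.8%, TGACATCA in 3.62%, TATAAA in 13.6% and GGGCGG in 35.7%. No match of the full element TGACGTCA (1.79% of promoters), of the AP-1 sites TGACTCA and TGAGTCA (5.20%) or of the CArG box bound by serum response factor (1.63%) was found in the windows of the 7 members, which says only that these letters are not in this window. The RefSeq start is the GENCODE 5′ end for Fos and Jun. For Atf3 and Fosl2 (chr5:32136222-32136521) the window lies inside the locus, away from its 5′ end. For Jund (chr8:70697489-70697788) it lies wholly before the locus. The windows of these 3 genes therefore do not hold the GENCODE 5′ end. The core TGACG is part of TGACGTCA, so the 2 searches overlap.

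The libraries held 36543840 ± 3688105 estimated counts (SD, n = 160), with 30192678 to 46301317 in the striatum, 28471184 to 44245124 in the cortex, 30491240 to 44400003 in the cerebellum and 34585602 to 45897975 in the liver. Lists of 5 markers for each of 12 cell types were checked, and the neuron list moved most evenly with genotype. Its summed level was 2626 to 2969 CPM (CPM being the count relative to library size, scaled within the tissue) in R6/2 vehicle striatum, against 3410 to 3876 CPM in WT vehicle striatum. The same sum was 3825 to 4541 CPM in R6/2 vehicle cortex, against 5310 to 6687 CPM in WT, and 3216 to 3624 CPM in R6/2 vehicle cerebellum, against 4094 to 4645 CPM in WT. These ranges did not overlap, with 5 of 5, 4 of 5 and 4 of 5 neuron markers lower in R6/2 in the striatum, cortex and cerebellum and 1 of 5 higher in the cerebellum. Of all genes 26.5%, 26.9% and 26% fell in the striatum, cortex and cerebellum, and 26.3% rose in the cerebellum. Fewer cells of a type and less RNA per cell cannot be told apart in such bulk tissue, and the part of neuron RNA in the differences below was not tested. Medium spiny neuron markers, which define the projection neurons of the striatum, fell in 5 of 5 in R6/2 striatum, with a sum of 1214 to 1723 CPM in R6/2 and 3351 to 4215 CPM in WT. Cerebellar granule and Purkinje cell markers fell in 4 of 5 in R6/2 cerebellum, with 2390 to 2675 CPM in R6/2 and 3251 to 3673 CPM in WT. Lower sums were not limited to neuron lists. Mean oligodendrocyte sums in R6/2 and WT vehicle were 7332 and 9121 CPM (striatum), 3479 and 3957 CPM (cortex) and 3308 and 4385 CPM (cerebellum). Mean astrocyte sums were 910 and 1009, 823 and 1009, and 2225 and 2457 CPM. The ranges of these glial sums overlapped. Microglia sums were higher in R6/2 cerebellum, as given below. In R6/2 liver endothelial markers rose in 4 of 5, with 55.3 to 104.5 CPM in R6/2 and 48.2 to 68.95 CPM in WT, and Kupffer cell markers rose in 2 of 5. Of all genes 12.9% rose in the liver. Hepatocyte markers led in the liver, where the cerebellar and cortical neuron lists were near 0, and the striatal, cortical and cerebellar lists led in their own tissues. On a scale common to all tissues, the choroid plexus list ran from 4.06 to 2269 CPM between cerebellar libraries.

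Some libraries stood apart. By Dixon's test within each group of 10, 9 libraries were set apart in at least 2 of the 8 genes, 2 in the cortex, 3 in the cerebellum and 4 in the liver, each time by a high value, and results that turn on them are given with and without them. The 3 of the cerebellum were all WT, so leaving them out takes high values from the WT side only. In the liver the male WT vehicle replicate 5 was set apart in Fosl2, Jun, Junb and Jund, and the male WT CHDI-00340246 replicate 4 in Fosl2, Jun and Junb. Libraries also differed in how expression rose with the GC content of genes. The median slope of log2 expression on GC was -0.085 in R6/2 vehicle striatum and 0.087 in WT vehicle striatum, -0.048 and 0.039 in R6/2 and WT cortex, -0.042 and 0.085 in R6/2 and WT cerebellum, and 0.026 and 0.032 in R6/2 and WT liver. Over 30 relations of a gene and a tissue within groups, after adjustment over the 30 this slope went with Jund in all 4 tissues, with Junb in the striatum and cerebellum and with Jun in the striatum and cerebellum (in the cortex by Pearson's r only). It went with none of Fos, Fosb, Fosl1, Fosl2 and Atf3 in any tissue. The slope was taken from the expressed genes of each library and itself differed between R6/2 and WT in the brain. A fit with the slope as a term therefore cannot tell a technical GC effect from an effect of genotype. Values from that fit are given below beside those of the main fit.

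Per length of gene, the 3 Jun genes made up most of the family's RNA in every tissue, and Atf3 was among the lowest members. FPKM, fragments per kilobase of transcript scaled to the fragments of a library, is the scale on which levels of different genes can be compared, and the FPKM columns were used by group. In the striatum Jund was the highest member at 14.8 ± 5.17 FPKM in R6/2 vehicle columns and 15.1 ± 2.41 FPKM in WT vehicle columns (SD, n = 10 each). Junb, which often acts against Jun, came next in WT striatum at 14.5 ± 3.64 FPKM, with 6.76 ± 3.07 FPKM in R6/2. In the cortex Jund, the broadly expressed Jun protein, had 15.4 ± 2.07 FPKM in R6/2 and 15.01 ± 2.58 FPKM in WT, and Fos had 7.69 ± 4.71 FPKM in R6/2 and 14.6 ± 7.22 FPKM in WT.

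The cerebellum had a different leading member. Jun reached 29.03 ± 4.24 FPKM in R6/2 vehicle columns and 15.9 ± 2.67 FPKM in WT vehicle columns, which was 48.4% and 31.4% of the family's summed mean FPKM in R6/2 and WT. Fosb, whose truncated form accumulates with repeated stimulation of striatal neurons, had 0.116 ± 0.0316 FPKM in R6/2 cerebellum and 0.147 ± 0.108 FPKM in WT cerebellum, against 2.20 ± 0.490 FPKM in R6/2 striatum and 2.74 ± 0.262 FPKM in WT striatum. Atf3 stayed between 0.292 and 1.12 FPKM in the vehicle group means of all 4 tissues. In the liver Jund led in R6/2 at 6.37 ± 1.42 FPKM and Junb in WT at 8.21 ± 6.82 FPKM, with SDs that overlap for these genes. The summed mean FPKM of the 8 genes was 35 in R6/2 and 49.2 in WT striatum, 46.2 in R6/2 and 62.02 in WT cortex, 59.9 in R6/2 and 50.7 in WT cerebellum, and 18.04 in R6/2 and 20.7 in WT liver.

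**Figure D1:**
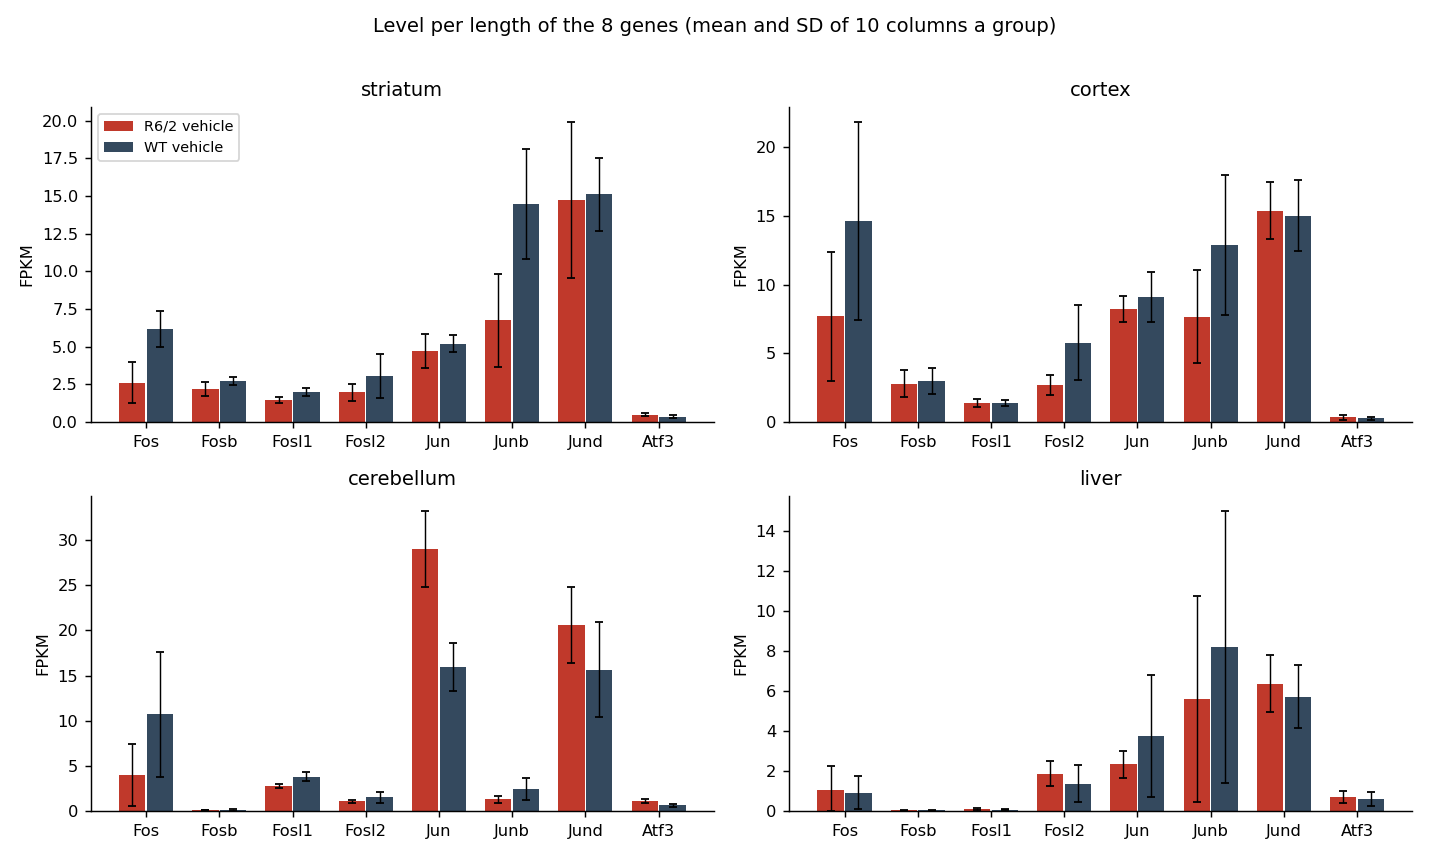
Mean level per length (FPKM) of the 8 genes in R6/2 vehicle (red) and WT vehicle (dark grey) columns of each tissue, with the SD of 10 columns a group and error bars cut at 0. Jun in R6/2 cerebellum is the highest bar at 29.03 FPKM, and Fosb and Fosl1 are near 0 in the liver.

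Differences between tissues were tested in WT vehicle libraries with edgeR's quasi-likelihood test on all 160 libraries, and 33 of 48 tests of a member between a pair of tissues passed at an adjusted p under 0.05. Between striatum and cortex 4 of 8 members passed, where 56.5% of all genes did, between striatum and cerebellum 6 of 8 (all genes 73.7%), and between cortex and cerebellum 6 of 8 (all genes 71.1%). Against the liver 5 of 8 passed from the striatum (all genes 89.4%), 5 of 8 from the cortex (all genes 89.9%) and 7 of 8 from the cerebellum (all genes 90.1%). Fosb and Fosl1, with at most 14 counts in a liver library, entered these tests through the brain, and without them 3 of 6, 3 of 6 and 5 of 6 passed against the liver. The members' shares were near those of all genes between brain tissues and lower in the pairs of the striatum and the cortex with the liver.

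The order of a gene over the brain tissues differed between members. Across the brain Jun was lowest in WT striatum (14.9 ± 1.52 CPM on a scale common to all tissues), higher in WT cortex (24.8 ± 4.81 CPM) and highest in WT cerebellum (40.98 ± 6.97 CPM), with -1.46 (log2) for striatum minus cerebellum and -0.72 for striatum minus cortex. Junb had the opposite order, at 23.9 ± 5.95 CPM in WT striatum, 20.3 ± 7.83 CPM in WT cortex and 3.57 ± 1.86 CPM in WT cerebellum, with a striatum over cerebellum difference of 2.74 (log2), and its striatum and cortex did not differ beyond their spread. Fosb was 4.42 higher (log2) in WT striatum than in WT cerebellum. Fosl1, a Fos relative that lacks the strong activation domain of Fos, was highest in WT cerebellum, where cortex minus cerebellum was -1.36 (log2). Jund differed in none of the 6 pairs. Comparisons with the liver depend on the scaling between tissues, whose TMM factors ran from 0.45 to 1.34: the WT striatum minus liver difference of Jun was -0.58 from counts and 0.56 (log2) from FPKM.

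The main comparison asked how the family differed between R6/2 and WT mice under vehicle. In the striatum 7 of 8 members passed, Atf3 higher and 6 members lower in R6/2, where 56.2% of all genes passed, 29.7% upward and 26.5% downward. Fos, Fosl2, Jun and Junb passed in the cortex, all 4 lower in R6/2 (all genes 55%, 28.1% upward and 26.9% downward). In the cerebellum 6 of 8 passed, with Jun and Atf3 higher and Fos, Fosl1, Fosl2 and Junb lower in R6/2 (all genes 52.3%, 26.3% upward and 26% downward). Of 6 members that passed the expression filter in the liver, Jun alone passed and was lower (all genes 25.7%, 12.9% upward and 12.8% downward). The share of members passing in either direction was not above that of all genes in the cortex and liver, while the share that fell was above the share of all genes that fell in the 3 brain tissues. With the GC slope of each library in the fit, 3 members were lower in R6/2 in the striatum, 2 in the cortex and 4 in the cerebellum. The cortical 2 in 8 is not above the 26.9% of all genes, but that share is from the fit without the slope. The share of all genes with the slope in the fit is not given here, so these counts have no background of their own. The median log2 fold change of the members was -0.52, -0.21, -0.43 and -0.04 in the striatum, cortex, cerebellum and liver, beside 0.02, 0.01, 0.01 and 0.01 over all tested genes. On the FPKM scale the split of all calls shifted, with 73.2%, 67.8%, 64.1% and 93.1% of passing genes higher in R6/2 in the 4 tissues, against 52.8%, 51.2%, 50.3% and 50.3% from counts.

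**Figure D2:**
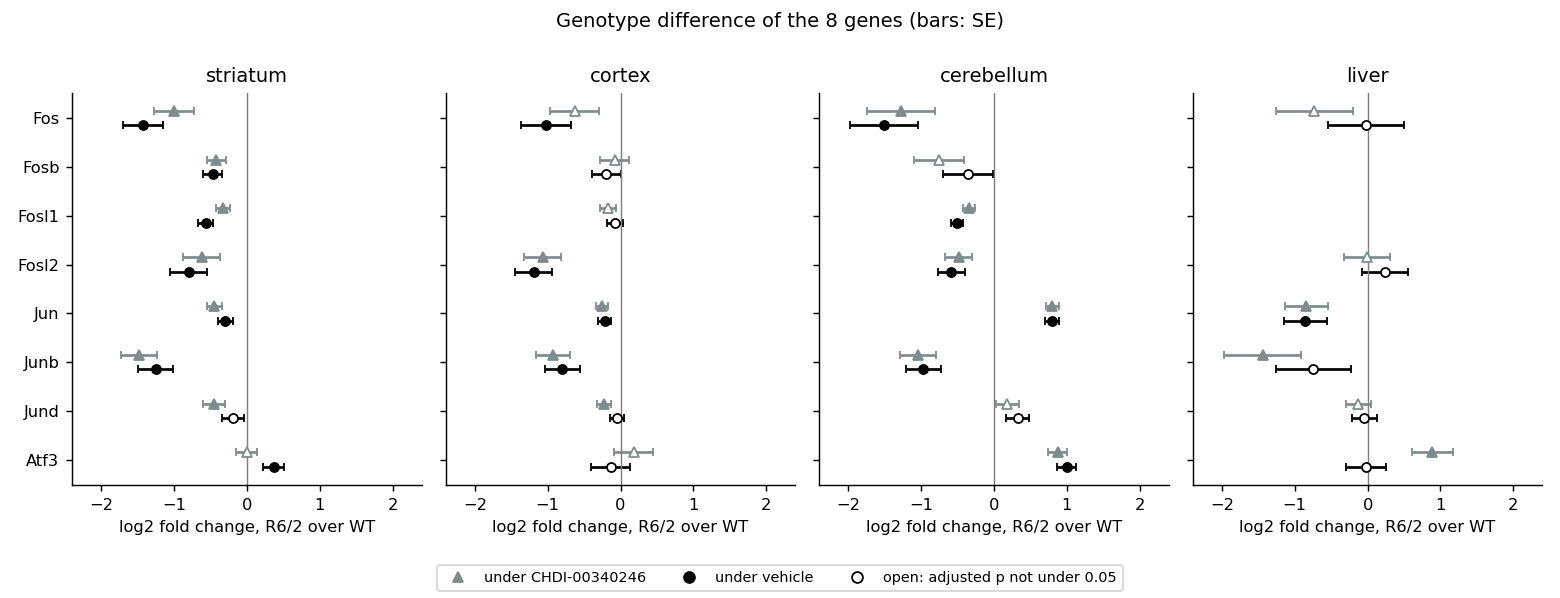
Log2 fold change of R6/2 over WT for each gene in the 4 tissues, under CHDI-00340246 (grey triangles) and under vehicle (black circles), with SE bars from edgeR and filled symbols where the adjusted p was under 0.05. Fos and Junb lie left of 0 in the 3 brain tissues, Jun and Atf3 lie right of 0 in the cerebellum, and Fosb and Fosl1 are missing in the liver because they did not pass the expression filter.

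Fos, the founding member and a standard marker of recent neuronal activity, fell in R6/2 in all 3 brain tissues. In the striatum the lowest, median and highest CPM were 2.37, 3.47 and 10.9 in R6/2 vehicle libraries, against 9.34, 12.9 and 17.2 in WT vehicle libraries. All 10 R6/2 libraries lay below the WT mean, and the highest R6/2 library, female replicate 4, reached into the WT range. The log2 fold change was -1.43 ± 0.27 (SE) with an adjusted p of 3.09e-05 by edgeR. In the cortex Fos had 7.93, 12.2 and 37.7 CPM in R6/2, against 13.4, 22.9 and 59.2 CPM in WT, groups that overlapped with 9 of 10 R6/2 libraries below the WT mean. The cortical fold change was -1.02 ± 0.34 (adjusted p = 0.011). The cerebellum gave 2.25, 5.36 and 24.9 CPM in R6/2, against 10.1, 18.6 and 55.7 CPM in WT, again with 9 of 10 below the WT mean and an overlap made by female replicate 4. The cerebellar fold change was -1.51 ± 0.47 (adjusted p = 0.00671). In the liver the groups overlapped throughout, at 0.494, 1.25 and 7.75 CPM in R6/2 and 0.838, 1.36 and 6.78 CPM in WT, with a fold change of -0.02 ± 0.52 (adjusted p = 0.978).

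Within the 5 runs of specimen numbers described below, each holding 1 library of every genotype, treatment and sex, Fos was lower in R6/2 vehicle libraries in 5 of 5 runs in each brain tissue, with differences of -2.11 to -0.78 (log2) in the striatum, -1.74 to -0.59 in the cortex and -2.09 to -1.13 in the cerebellum. In every run the R6/2 libraries of a sex carried lower specimen numbers than the WT ones. The cortical and the cerebellar call each turned on 1 replicate number. Without replicate 3 of every group the cortical adjusted p was 0.0588, and without replicate 2 the cerebellar one was 0.0743. With the 3 cerebellar libraries that stood apart left out, the cerebellar fold change of Fos was -1.09 ± 0.42 (adjusted p = 0.0298). All 3 were WT, whereas the high R6/2 vehicle library, female replicate 4, was set apart in Fos alone and was kept.

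Fosl2, like Fosl1 a Fos relative without the strong activation domain, fell in the same 3 tissues. Cortical Fosl2 had 9.93, 14.02 and 21.3 CPM in R6/2, against 17.6, 28.1 and 63.9 CPM in WT, and only the upper R6/2 libraries reached the lower WT libraries. The fold change of -1.19 ± 0.25 (adjusted p = 0.000155) came with 10 of 10 R6/2 libraries below the WT mean. Striatal Fosl2 had 6.82, 10.8 and 16.7 CPM in R6/2, against 9.57, 17.7 and 40.8 CPM in WT, with a fold change of -0.80 ± 0.25 (adjusted p = 0.00678). Cerebellar Fosl2 had 4.44, 6.10 and 7.62 CPM in R6/2, against 5.61, 8.47 and 17.8 CPM in WT, with a fold change of -0.59 ± 0.19 (adjusted p = 0.00766). The groups overlapped in both of these tissues, with every R6/2 library below the WT mean. The cerebellar value was -0.34 ± 0.15 (adjusted p = 0.0533) without the 3 libraries that stood apart, and the striatal value was -0.57 ± 0.29 (adjusted p = 0.0994) with the GC slope of each library in the fit. In the liver Fosl2 was 0.24 ± 0.32 (adjusted p = 0.62), and 0.68 ± 0.20 (adjusted p = 0.0099) without the 4 liver libraries that stood apart, 1 of them the WT library at 28.2 CPM. The liver libraries set apart in Fosl2 were all WT and were chosen by high values of that gene. Leaving them out takes high Fosl2 values from the WT side only, so no rise in R6/2 is read from the second value.

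Fosl1 fell in the striatum and cerebellum. In the cerebellum it had 3.95, 4.69 and 5.10 CPM in R6/2, against 5.22, 6.41 and 7.98 CPM in WT, and the groups did not overlap, with a fold change of -0.50 ± 0.08 (adjusted p = 4.29e-06). In the striatum it had 1.93, 2.38 and 3.10 CPM in R6/2, against 2.82, 3.56 and 4.36 CPM in WT, overlapping at the edges, with a fold change of -0.57 ± 0.10 (adjusted p = 8.51e-06). Cortical Fosl1 was -0.08 ± 0.11 (adjusted p = 0.591). Its opposite-strand neighbour Ccdc85b averaged 5.27 CPM in R6/2 and 6.68 CPM in WT striatum, and 4.26 CPM in R6/2 and 5.73 CPM in WT cerebellum. The part of that neighbour's reads in the Fosl1 differences was not tested.

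Fosb passed only in the striatum, at 4.96, 8.22 and 10.3 CPM in R6/2, against 8.72, 10.8 and 12.9 CPM in WT. All 10 R6/2 libraries lay below the WT mean although the ranges overlapped, and the fold change was -0.47 ± 0.13 (adjusted p = 0.00223), or -0.30 ± 0.15 (adjusted p = 0.083) with the GC slope in the fit. The cortical difference was -0.19 ± 0.20 (adjusted p = 0.432) and the cerebellar one -0.35 ± 0.35 (adjusted p = 0.415). Whether the Fosb effect differed between striatum and cortex was tested and did not pass, at -0.26 ± 0.28 (adjusted p = 0.63). In the liver Fosb stayed at or below 0.260 CPM and Fosl1 at or below 0.284 CPM in every library, and neither passed the filter.

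**Figure D3:**
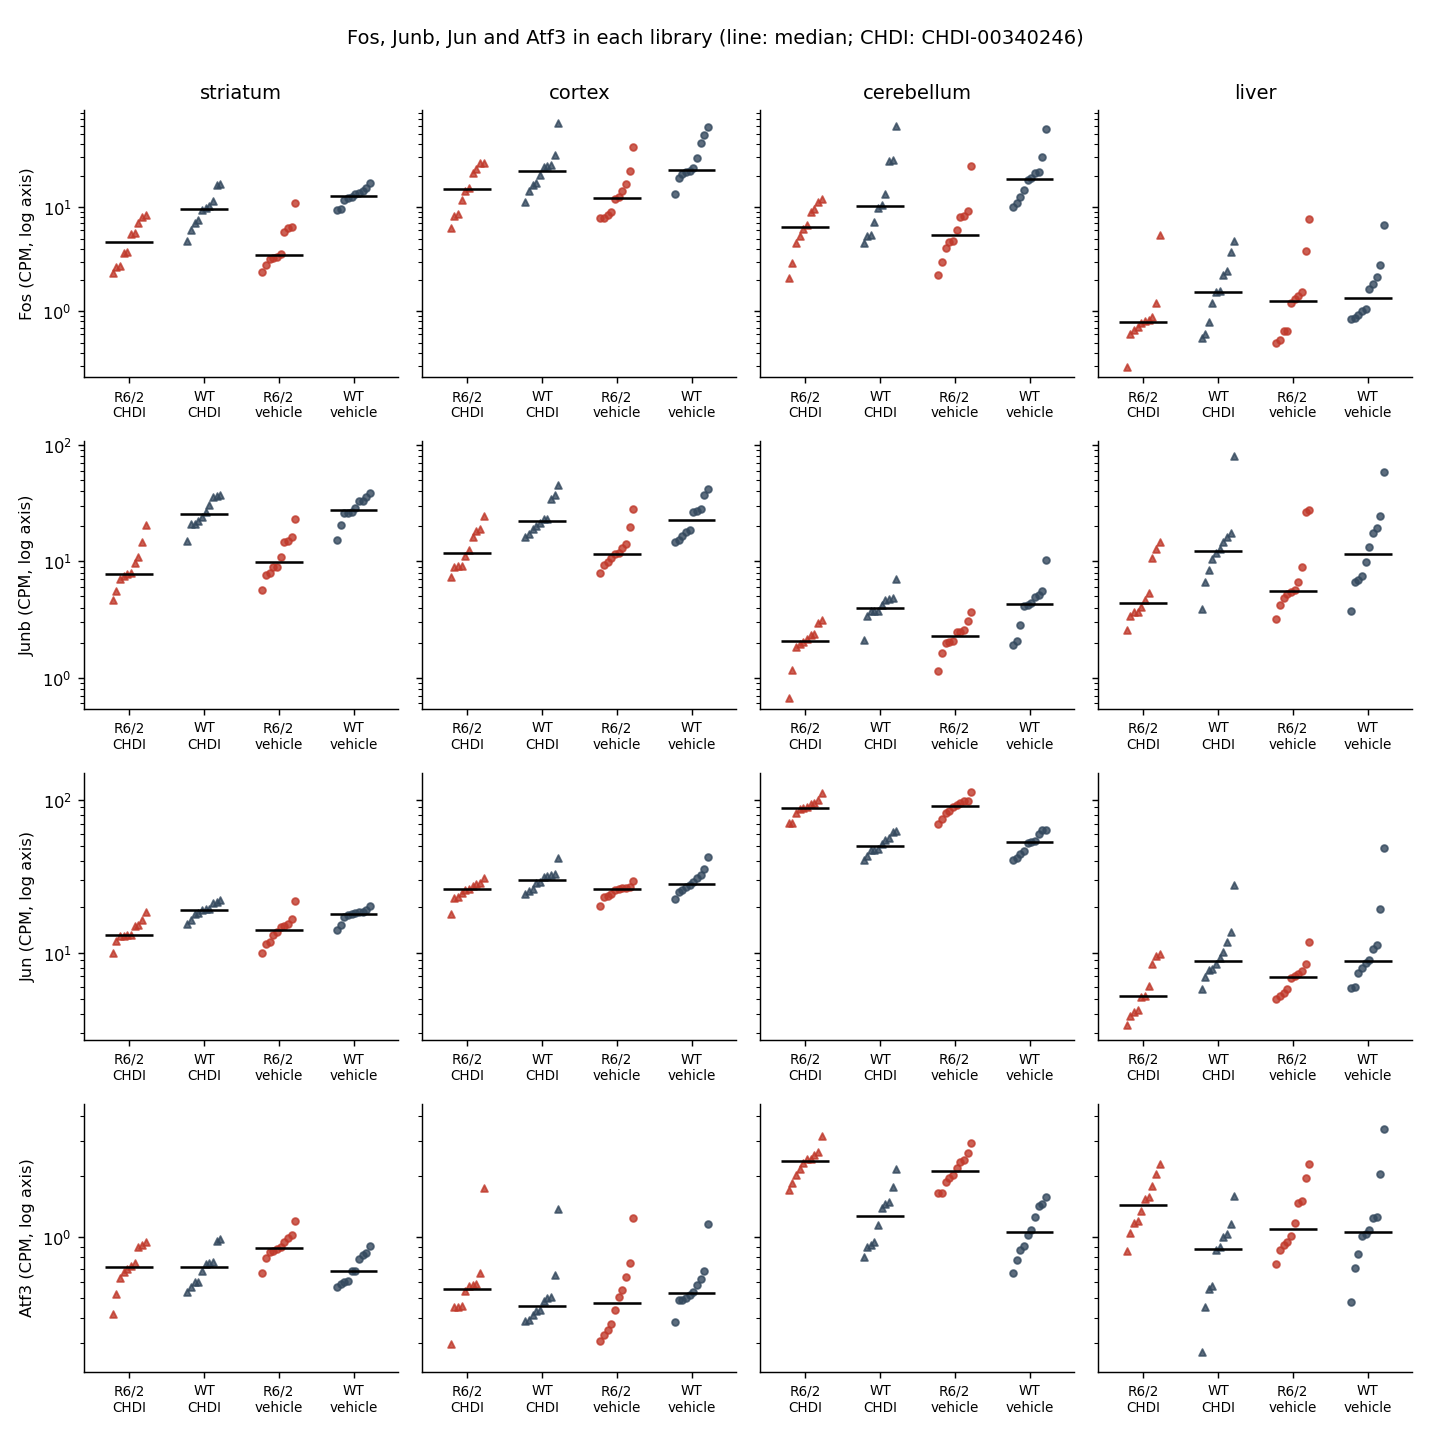
CPM (log axis) of Fos, Junb, Jun and Atf3 in each of the 160 libraries, by tissue and group, with R6/2 in red, WT in dark grey, triangles for CHDI-00340246, circles for vehicle, the group median as a line and libraries ordered by value within a group. Jun in the cerebellum is the panel without overlap under both treatments, at 69.3 to 113.5 CPM in R6/2 vehicle libraries and 40.2 to 63.9 CPM in WT vehicle libraries.

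Jun, the main target of the Jun N-terminal kinases and a gene whose protein acts on its own promoter, went opposite ways in the cerebellum and the other tissues. Cerebellar Jun had 69.3, 91.7 and 113.5 CPM in R6/2 vehicle libraries, against 40.2, 52.8 and 63.9 CPM in WT vehicle libraries. The lowest R6/2 library was above the highest WT library. The fold change was 0.80 ± 0.09 (adjusted p = 2.8e-09), with R6/2 higher in 5 of 5 runs of specimen numbers by 0.31 to 1.30 (log2), and 0.95 ± 0.07 (adjusted p = 1.55e-13) with the GC slope in the fit. Its antisense neighbour Junos averaged 0.646 CPM in R6/2 and 0.530 CPM in WT cerebellum.

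Striatal Jun had 9.94, 14.2 and 21.8 CPM in R6/2, against 14.1, 18.1 and 20.3 CPM in WT, overlapping groups with 9 of 10 R6/2 libraries below the WT mean. The fold change was -0.30 ± 0.10 (adjusted p = 0.0122). Cortical Jun had 20.1, 26.01 and 29.5 CPM in R6/2, against 22.6, 28.3 and 42.3 CPM in WT, also overlapping, and a fold change of -0.22 ± 0.09 (adjusted p = 0.0309). Neither remained with the GC slope in the fit, where the striatal value was -0.01 ± 0.08 (adjusted p = 0.954) and the cortical one -0.04 ± 0.09 (adjusted p = 0.704), nor on the FPKM scale. Within groups the level of Jun went with the GC slope in the striatum, r = 0.78 and rho = 0.78 (adjusted permutation p = 5e-05 and 0.0001, r = 0.73 without the 2 farthest libraries), and in the cerebellum, r = 0.68 and rho = 0.60 (adjusted permutation p = 0.00026 and 0.0015, r = 0.63 without the 2 farthest libraries). In the liver Jun had 4.98, 6.91 and 11.8 CPM in R6/2, against 5.88, 8.78 and 48.7 CPM in WT, with an overlap. Every R6/2 library lay below the WT mean, which the WT maximum raised, but the highest R6/2 library lay above the WT median. The fold change was -0.85 ± 0.30 (adjusted p = 0.0319). The WT maximum was male replicate 5, and without the 4 liver libraries that stood apart the value was -0.56 ± 0.21 (adjusted p = 0.0431). Leaving out replicate 1, 3 or 5 or the first run of specimen numbers took the liver call away, with values of -0.82 (adjusted p = 0.109), -0.97 (adjusted p = 0.0528), -0.38 (adjusted p = 0.358) and -0.59 ± 0.23 (adjusted p = 0.056).

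Junb fell in the 3 brain tissues. Striatal Junb had 5.65, 9.85 and 23.2 CPM in R6/2, against 15.2, 27.6 and 38.5 CPM in WT. Cortical Junb had 7.96, 11.7 and 27.9 CPM in R6/2, against 14.7, 22.7 and 41.8 CPM in WT. Cerebellar Junb had 1.14, 2.27 and 3.63 CPM in R6/2, against 1.90, 4.31 and 10.2 CPM in WT. The groups overlapped in all 3, with 10, 9 and 10 of 10 R6/2 libraries below the WT mean. The fold changes were -1.25 ± 0.25 (adjusted p = 5.32e-05), -0.80 ± 0.23 (adjusted p = 0.00449) and -0.97 ± 0.24 (adjusted p = 0.000955). By runs of specimen numbers, R6/2 was lower in 5 of 5 in the striatum and in 5 of 5 in the cortex. In the cerebellum R6/2 was lower in 3 of 5 runs and higher in 2, at -1.97 to 0.24 (log2). The WT cerebellar mean includes the library set apart at 10.2 CPM. Junb also moved with the GC slope within groups, r = 0.78 and rho = 0.77 (adjusted permutation p = 5e-05 and 6e-05, r = 0.72 without the 2 farthest libraries) in the striatum and r = 0.84 and rho = 0.81 (adjusted permutation p = 5e-05 and 6e-05, r = 0.79 without the 2 farthest libraries) in the cerebellum. With the slope in the fit its fold change was -0.61 ± 0.18 (adjusted p = 0.00536) in the striatum, -0.57 ± 0.27 (adjusted p = 0.0782) in the cortex and -0.37 ± 0.15 (adjusted p = 0.0353) in the cerebellum. Prdx2, which overlaps the end of Junb on the opposite strand, was higher in R6/2 than in WT, at 221 and 165 CPM on average in R6/2 and WT striatum. In the liver Junb had 3.21, 5.56 and 27.6 CPM in R6/2 and 3.76, 11.5 and 58.5 CPM in WT, and its fold change of -0.75 ± 0.51 did not pass (adjusted p = 0.291).

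Jund did not pass under vehicle in any tissue from counts alone. It had 24.7, 33.9 and 68.2 CPM in R6/2, against 33.6, 45.8 and 56.05 CPM in WT striatum, and 40.01, 59.05 and 79.5 CPM in R6/2, against 28.6, 43.7 and 85.8 CPM in WT cerebellum, with wide overlap. The fold changes were -0.19 ± 0.15 (adjusted p = 0.305), -0.04 ± 0.10 (adjusted p = 0.728), 0.32 ± 0.16 (adjusted p = 0.0828) and -0.05 ± 0.17 (adjusted p = 0.866) in the striatum, cortex, cerebellum and liver. Jund, the member with the highest GC content (67.2% of its longest transcript), followed the GC slope closely within groups, r = 0.91 and rho = 0.93 (adjusted permutation p = 5e-05 and 6e-05, r = 0.89 without the 2 farthest libraries) in the striatum and r = 0.91 and rho = 0.89 (adjusted permutation p = 5e-05 and 6e-05, r = 0.89 without the 2 farthest libraries) in the cortex. With the slope in the fit it was higher in R6/2 in the 3 brain tissues, at 0.30 ± 0.07 (adjusted p = 0.000698), 0.28 ± 0.05 (adjusted p = 1.02e-05) and 0.68 ± 0.08 (adjusted p = 3.85e-09), so the direction in the striatum and cortex turned. The slope itself differed with genotype, so a GC effect and a genotype effect on Jund cannot be told apart in this fit. Without the 3 cerebellar libraries that stood apart, among them the WT library at 85.8 CPM, cerebellar Jund was 0.51 ± 0.14 (adjusted p = 0.00354).

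Atf3, a stress-induced partner of Jun that marks injured neurons, rose in the cerebellum and striatum. In the cerebellum it had 1.65, 2.12 and 2.91 CPM in R6/2, against 0.668, 1.06 and 1.58 CPM in WT, and the groups did not overlap. The fold change was 1.0 ± 0.14 (adjusted p = 7.62e-08), with R6/2 higher in 5 of 5 runs of specimen numbers by 0.55 to 1.31 (log2), and 0.94 ± 0.14 (adjusted p = 7.72e-07) with the GC slope in the fit. At these levels a cerebellar library held 58 to 100 Atf3 counts in R6/2 and 21 to 60 in WT. In the striatum Atf3 had 0.667, 0.889 and 1.21 CPM in R6/2, against 0.568, 0.679 and 0.905 CPM in WT, overlapping groups with 9 of 10 R6/2 libraries above the WT mean. The fold change was 0.37 ± 0.14 (adjusted p = 0.0267). Without replicate 2, 3 or 5 of every group that call was lost, with adjusted p of 0.0855, 0.114 and 0.0642. Atf3 was -0.14 ± 0.27 (adjusted p = 0.691) in the cortex and -0.02 ± 0.27 (adjusted p = 0.971) in the liver. All 5 microglia markers rose in R6/2 cerebellum, with a sum of 61.5 to 77.6 CPM in R6/2 and 46.8 to 56.8 CPM in WT, ranges that did not overlap, and their part in the cerebellar rise of Jun and Atf3 was not tested. Of all genes 26.3% rose in that tissue.

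The difference of the genotype effect between tissues was tested in the fit of all 160 libraries, and 12 of 48 tests passed. This fit took the libraries of different tissues as independent. From striatum to cortex 1 of 8 members passed (15.6% of all genes), from striatum to cerebellum 1 of 8 (27.6%), from striatum to liver 3 of 8 (37.4%), from cortex to cerebellum 2 of 8 (21.6%), from cortex to liver 1 of 8 (30.5%) and from cerebellum to liver 4 of 8 (32.2%). The shares of members were below those of all genes for striatum to cortex, striatum to cerebellum and cortex to liver. Fosb and Fosl1 entered the liver pairs only through the brain, and without them 2 of 6 passed from striatum to liver, 1 of 6 from cortex to liver and 3 of 6 from cerebellum to liver. Jun set the cerebellum apart from each other tissue, with log2 differences in its genotype effect of -1.09 ± 0.23 (adjusted p = 7.35e-05) for striatum minus cerebellum, -1.03 ± 0.23 (adjusted p = 0.000237) for cortex minus cerebellum and 1.61 ± 0.24 (adjusted p = 8.4e-09) for cerebellum minus liver. Atf3 differed between cortex and cerebellum by -1.15 ± 0.31 (adjusted p = 0.00299), while striatum minus cerebellum was -0.63 ± 0.30 (adjusted p = 0.121). Both Jun differences within the brain also passed with the GC slope in the fit, and with the place of the specimen number as a term.

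No difference in the fall of Fos between brain tissues passed, with striatum minus cortex at -0.39 ± 0.56 (adjusted p = 0.726), striatum minus cerebellum at 0.08 ± 0.56 (adjusted p = 0.96) and cortex minus cerebellum at 0.48 ± 0.55 (adjusted p = 0.62). Fos at the same place in the specimen numbers went together between brain tissues, with r of 0.80 to 0.88 as given below. The SE of these differences may therefore be too wide, and they cannot show that the falls were equal. Against the liver the genotype effect on Fos differed by -1.44 ± 0.60 (adjusted p = 0.0496) from the striatum and -1.52 ± 0.60 (adjusted p = 0.0398) from the cerebellum. Neither passed with the GC slope in the fit, at -1.23 ± 0.65 (adjusted p = 0.136) and -1.27 ± 0.62 (adjusted p = 0.111). Fosl2 differed most between cortex and liver, by -1.48 ± 0.36 (adjusted p = 0.00056). Fosl1 was the one member whose striatal and cortical effects differed, by -0.47 ± 0.17 (adjusted p = 0.0484), which with the GC slope in the fit was -0.45 ± 0.21 (adjusted p = 0.152).

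Under CHDI-00340246 the comparison of R6/2 with WT, which uses other libraries, gave the following calls, several of which did not remain with the GC slope in the fit. In the striatum 7 of 8 passed, all lower in R6/2 (all genes 58.1%, 29.7% upward and 28.4% downward). Fosl2, Jun, Junb and Jund passed in the cortex, all lower (all genes 57.1%, 29.2% upward and 27.9% downward). The cerebellum gave the same 6 members as under vehicle in the same directions (all genes 54.6%, 27.9% upward and 26.7% downward). In the liver Jun and Junb were lower and Atf3 was higher, 3 of the 6 tested (all genes 28.8%, 15.1% upward and 13.7% downward). With the GC slope in the fit Fosl1 and Junb were lower and Jund higher in the striatum, Fosl2 lower and Jund higher in the cortex. In the cerebellum Fosl1 was lower and Jun, Jund and Atf3 were higher, and no other brain call remained.

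Cerebellar Jun had 70.7, 89.2 and 110.7 CPM in R6/2 CHDI-00340246 libraries, against 40.2, 49.9 and 62.7 CPM in WT CHDI-00340246 libraries, again without overlap. The fold change was 0.80 ± 0.09 (adjusted p = 2.1e-09). Cerebellar Atf3 had 1.72, 2.38 and 3.16 CPM in R6/2, against 0.799, 1.28 and 2.18 CPM in WT, here with an overlap. Its fold change was 0.87 ± 0.13 (adjusted p = 6.7e-07). Striatal Junb had 4.64, 7.85 and 20.7 CPM in R6/2, against 15.03, 25.3 and 37.5 CPM in WT, with a fold change of -1.49 ± 0.25 (adjusted p = 4.71e-06), or -0.53 ± 0.21 (adjusted p = 0.0338) with the GC slope in the fit. With that slope cortical Junb was -0.55 ± 0.33 (adjusted p = 0.185) and cerebellar Junb -0.16 ± 0.17 (adjusted p = 0.456). Striatal Fos was -1.0 ± 0.27 (adjusted p = 0.00185) and cerebellar Fos -1.28 ± 0.47 (adjusted p = 0.0202), the second being -0.81 ± 0.41 (adjusted p = 0.0963) without the libraries that stood apart, and cortical Fos did not pass at -0.63 ± 0.34 (adjusted p = 0.113). With the GC slope in the fit striatal Fos was -0.70 ± 0.36 (adjusted p = 0.107) and cerebellar Fos -0.93 ± 0.59 (adjusted p = 0.195). Jund passed in the striatum at -0.45 ± 0.15 (adjusted p = 0.0118) and in the cortex at -0.23 ± 0.10 (adjusted p = 0.0432), and with the GC slope in the fit both turned, to 0.32 ± 0.09 (adjusted p = 0.00238) and 0.32 ± 0.06 (adjusted p = 5.7e-05).

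Liver Atf3 had 0.852, 1.44 and 2.30 CPM in R6/2 CHDI-00340246 libraries, against 0.270, 0.878 and 1.60 CPM in WT CHDI-00340246 libraries, with overlap, and a fold change of 0.89 ± 0.28 (adjusted p = 0.016). Without replicate 2 or 3 the adjusted p was 0.0975 and 0.0617. Liver Junb had 2.55, 4.34 and 14.7 CPM in R6/2, against 3.90, 12.3 and 80.98 CPM in WT, where the highest WT library was male replicate 4. Its fold change of -1.44 ± 0.52 (adjusted p = 0.0367) was -1.0 ± 0.45 (adjusted p = 0.0929) without the libraries that stood apart, and the adjusted p was 0.0624 to 0.107 over the fits that left out 1 replicate number. Atf3 in the striatum, higher in R6/2 under vehicle, was -0.01 ± 0.14 (adjusted p = 0.977) under CHDI-00340246. The interaction of drug and genotype for that gene was -0.37 ± 0.20 (log2, adjusted p = 1) and did not pass.

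The study's drug comparison asked whether a single dose of CHDI-00340246 changed expression, and no member passed it in any tissue by edgeR or by DESeq2. It shares the vehicle libraries with the genotype comparison above. In R6/2 mice 0 of 8 members passed in the striatum, cortex and cerebellum and 0 of 6 in the liver, where 0.0%, 0.125%, 0.0407% and 0.0726% of all genes did. In WT mice 0 members passed, and 0.0%, 0.0%, 0.0% and 0.0% of all genes. The interaction of drug and genotype gave 0 members and 0.0%, 0.0%, 0.0% and 0.0% of all genes in the 4 tissues. At an unadjusted p under 0.05 the counts of members were 1 in R6/2 striatum, 1 in WT striatum and 1 in WT liver, with 1 for the interaction in the liver, where 6.39%, 3.62%, 3.19% and 2.52% of all genes lay under that p. Those were Atf3 in R6/2 striatum, which had 0.415, 0.709 and 0.950 CPM under CHDI-00340246 and 0.667, 0.889 and 1.21 CPM under vehicle (-0.35 ± 0.14, adjusted p = 0.744 by edgeR), Fosl1 in WT striatum (-0.21 ± 0.10, adjusted p = 1 by edgeR) and Atf3 in WT liver (-0.70 ± 0.28, adjusted p = 1 by edgeR). The liver interaction was that of Atf3 as well, at 0.91 ± 0.39 (adjusted p = 1 by edgeR). For the genes with the largest spread the SE limits what could be seen: the drug effect on Fos in R6/2 was 0.06 ± 0.27 in the striatum, 0.12 ± 0.34 in the cortex, -0.10 ± 0.47 in the cerebellum and -0.71 ± 0.53 in the liver, whereas that on Jun in R6/2 cerebellum was -0.02 ± 0.09.

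No member's genotype effect differed between the sexes past the threshold. This interaction with sex among vehicle mice passed for 0 of 8 members in the striatum, cortex and cerebellum and 0 of 6 in the liver by edgeR and by DESeq2, beside 0.0%, 0.0%, 0.0% and 4.28% of all genes. At an unadjusted p under 0.05 it gave 1 of 8 members in the cortex, 1 of 8 in the cerebellum and 1 of 6 in the liver, where 9.64%, 3.14% and 17.9% of all genes lay under that p. They were Jund in the cortex at 0.42 ± 0.19 (adjusted p = 0.482 by edgeR), Atf3 in the cerebellum at -0.65 ± 0.27 (adjusted p = 1 by edgeR) and, in the liver, Jun at 1.46 ± 0.59 for females minus males (adjusted p = 0.174 by edgeR). Liver Jun averaged 7.97 ± 2.37 CPM in R6/2 and 8.68 ± 1.20 CPM in WT females, and 6.07 ± 1.08 CPM in R6/2 and 18.2 ± 17.9 CPM in WT males (SD, n = 5 each). The WT male mean includes the library that stood apart at 48.7 CPM.

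Other immediate early genes, which share the inducing signals of Fos, were listed as 19 genes, among them Egr, Nr4a, Ier and Dusp genes and Npas4. In R6/2 under vehicle 0 rose and 14 of 19 fell in the striatum, 0 rose and 14 of 19 fell in the cortex, 3 rose and 9 fell of 17 measured in the cerebellum, and 1 rose and 1 fell of 14 measured in the liver. Of all genes 29.7% rose and 26.5% fell in the striatum, 28.1% and 26.9% in the cortex, 26.3% and 26% in the cerebellum and 12.9% and 12.8% in the liver. Their median log2 fold change was -0.87, -0.89, -0.68 and 0.06 in the 4 tissues, beside 0.02, 0.01, 0.01 and 0.01 for all genes. Npas4, a neuron-specific activity gene, averaged 6.78 ± 2.45 CPM in R6/2 and 38.5 ± 7.44 CPM in WT striatum (-2.51 ± 0.20 on the log2 scale). Egr2 averaged 0.855 ± 0.579 CPM in R6/2 and 12.5 ± 5.24 CPM in WT striatum (-3.88 ± 0.35). In the cerebellum Dusp5, a phosphatase of the ERK kinases, averaged 13.6 ± 2.79 CPM in R6/2 and 86.3 ± 18.3 CPM in WT (-2.66 ± 0.14), while Btg2, an antiproliferative gene, rose, at 28.7 ± 2.04 CPM in R6/2 and 20.6 ± 1.70 CPM in WT (0.48 ± 0.06).

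For the kinases and factors that act upstream of AP-1 the calls were 2 up and 12 down in the striatum, 4 up and 10 down in the cortex and 4 up and 7 down in the cerebellum, each of 21 measured, and 2 up and 2 down of 20 in the liver. The share that fell was above the 26.5% of all genes in the striatum and 26.9% in the cortex. In the cerebellum it was near 26%. Map3k12, the dual leucine zipper kinase that drives Jun signalling in injured neurons, fell in all 3 brain tissues, with 58.9 ± 2.89 CPM in R6/2 and 82.5 ± 3.44 CPM in WT striatum, 85.98 ± 4.31 CPM in R6/2 and 112.5 ± 5.08 CPM in WT cortex, and 137.1 ± 6.39 CPM in R6/2 and 194 ± 10.8 CPM in WT cerebellum. Its fold changes were -0.49 ± 0.03, -0.39 ± 0.03 and -0.50 ± 0.04 (log2). Srf, the serum response factor that induces Fos, averaged 33.3 ± 3.61 CPM in R6/2 and 52.5 ± 5.10 CPM in WT striatum (-0.66 ± 0.08). In the cerebellum, where Jun rose, Map2k4, a kinase that activates the Jun N-terminal kinases, rose in R6/2, by 0.23 ± 0.03 (log2).

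Other basic leucine zipper genes gave 4 up and 6 down of 22 in the striatum, 4 up and 7 down of 22 in the cortex, 4 up and 4 down of 21 in the cerebellum and 2 up and 4 down of 23 in the liver. The striatal share that fell was near the 26.5% of all genes, and the cerebellar share was below 26%. Jdp2, a Jun dimerisation partner, fell in the cortex, at 20.8 ± 2.58 CPM in R6/2 and 33.97 ± 4.68 CPM in WT (-0.71 ± 0.06). Creb5 rose in the cerebellum, at 13.8 ± 1.66 CPM in R6/2 and 6.04 ± 1.26 CPM in WT (1.19 ± 0.13). Genes known as AP-1 targets gave 1 up and 4 down of 11 in the striatum, 2 up and 9 down of 13 in the cortex, 2 up and 3 down of 12 in the cerebellum and 1 up and 0 down of 13 in the liver. The cortical share that fell was above that of all genes, and the cerebellar shares were at or below the 26.3% of all genes that rose and the 26% that fell there. Penk, which encodes proenkephalin and is also a marker of striatal projection neurons, averaged 305 ± 26.4 CPM in R6/2 and 1454 ± 239.6 CPM in WT striatum (-2.25 ± 0.09), and Ccnd1, cyclin D1, averaged 73.3 ± 5.83 CPM in R6/2 and 34.3 ± 5.41 CPM in WT cerebellum (1.09 ± 0.08).

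Genes that accompany Jun and Atf3 in injured neurons gave 4 up and 7 down of 12 in the striatum, 3 up and 4 down of 11 in the cortex, 2 up and 5 down of 10 in the cerebellum and 0 up and 1 down of 7 in the liver. The cerebellar share that rose was below the 26.3% of all genes, and the striatal share that fell was above the 26.5% of all genes. In the cerebellum, where both Jun and Atf3 rose, the 2 that rose were Sox11, a transcription factor of axon growth, at 0.931 ± 0.258 CPM in R6/2 and 0.371 ± 0.111 CPM in WT (1.32 ± 0.20), and Gap43, a growth cone protein, at 146.6 ± 12.3 CPM in R6/2 and 125.4 ± 4.55 CPM in WT (0.23 ± 0.05). Stmn2, a regulator of axonal microtubules, went the other way there, at 393 ± 20.9 CPM in R6/2 and 532 ± 22.4 CPM in WT (-0.44 ± 0.05).

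Libraries of 1 group differed widely in the inducible members. Over 40 libraries of a tissue, with group means removed, the spread of Fos ranked at 93.7 to 97.6% of all tested genes across the 4 tissues (100% being the most variable) and that of Junb at 90.98 to 97.6%, while Fosl1 ranked at 56.3 to 69.6%. The members moved together within groups in 44 of 99 pairs of genes and tissues tested (Pearson, Benjamini-Hochberg adjusted over the 99, 100000 permutations, of which 1e-05 is the smallest p they can give). The share of passing pairs among all genes was not computed, so whether this count is particular to the members is not known. Fewer pairs passed with specimen number runs as a term, as given below. Fos and Fosl2 in the cortex gave r = 0.88, rho = 0.89, adjusted permutation p = 7.1e-05 and 5.8e-05, and Fosb and Fosl2 there gave r = 0.89, rho = 0.88, adjusted permutation p = 7.1e-05 and 5.8e-05. Without the 2 libraries farthest from the median of the first gene these were r = 0.87 and 0.86. Junb and Jund in the striatum gave r = 0.86, rho = 0.84, adjusted permutation p = 7.1e-05 and 5.8e-05, and r = 0.82 without the 2 farthest, beside the relation of both to the GC slope. No pair with Fosl1 passed in any tissue, and in the brain no pair of Jun with a Fos gene did.

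The genes most like each member within groups, among genes that averaged 1 CPM or more, were other immediate early genes for Fos and Fosl2 in the brain. Fos was most like Egr2 (r = 0.89) in the striatum, Egr2 (r = 0.93) in the cortex, Npas4 (r = 0.89) in the cerebellum and Zfp36 (r = 0.78) in the liver, over 40 libraries each. Fosl2 was most like Nr4a3 (r = 0.92) in the striatum, Egr2 (r = 0.94) in the cortex and Nr4a1 (r = 0.90) in the cerebellum, but Sbno2 (r = 0.91) in the liver. Jund was most like Pcsk1n (r = 0.97), Abhd17a (r = 0.93) and Tmem121 (r = 0.95) in the 3 brain tissues, and Jun was most like Sh2d3c (r = 0.86) in the cerebellum. Atf3 had no close neighbour in the cerebellum, the nearest being Bach1 (r = 0.58).

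The libraries of a tissue carry 40 consecutive specimen numbers, which fall into 5 runs of 8, each with 1 library of every genotype, treatment and sex, so that runs and groups are balanced. Within a run the numbers of each sex follow 1 fixed order: R6/2 CHDI-00340246, R6/2 vehicle, WT CHDI-00340246, WT vehicle. Place within a run is thus tied to genotype and treatment, and an effect of it cannot be told apart from theirs. What the order of the specimen numbers stands for is not stated in the labels. Fos in the cortex had 21.4, 32.1 and 64.7 CPM (lowest, median and highest of 8) in the first run and 7.99, 12.6 and 20.5 CPM in the fifth, and the 2 runs did not overlap although each held all groups. Fosb in the cortex had 11, 15.8 and 18.5 CPM in the first run and 6.42, 8.03 and 9.80 CPM in the fifth, also without overlap. With group means removed, the first run exceeded the fifth in Fos by 0.77, 1.45 and 1.72 (log2) in the striatum, cortex and cerebellum, and in Fosl2 by 1.15, 1.16 and 0.85. Liver Fos differed by -0.61, in the other direction. Jun differed by 0.09, 0.03 and -0.07 in the 3 brain tissues and Fosl1 by -0.13, -0.14 and -0.21. Of the other immediate early genes, 19 of 19 in the striatum, 18 of 19 in the cortex and 15 of 17 in the cerebellum were higher in the first run than in the fifth, with medians of 0.61, 0.69 and 0.53 (log2), beside 50.6%, 47.7% and 48.8% of all genes.

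**Figure D4:**
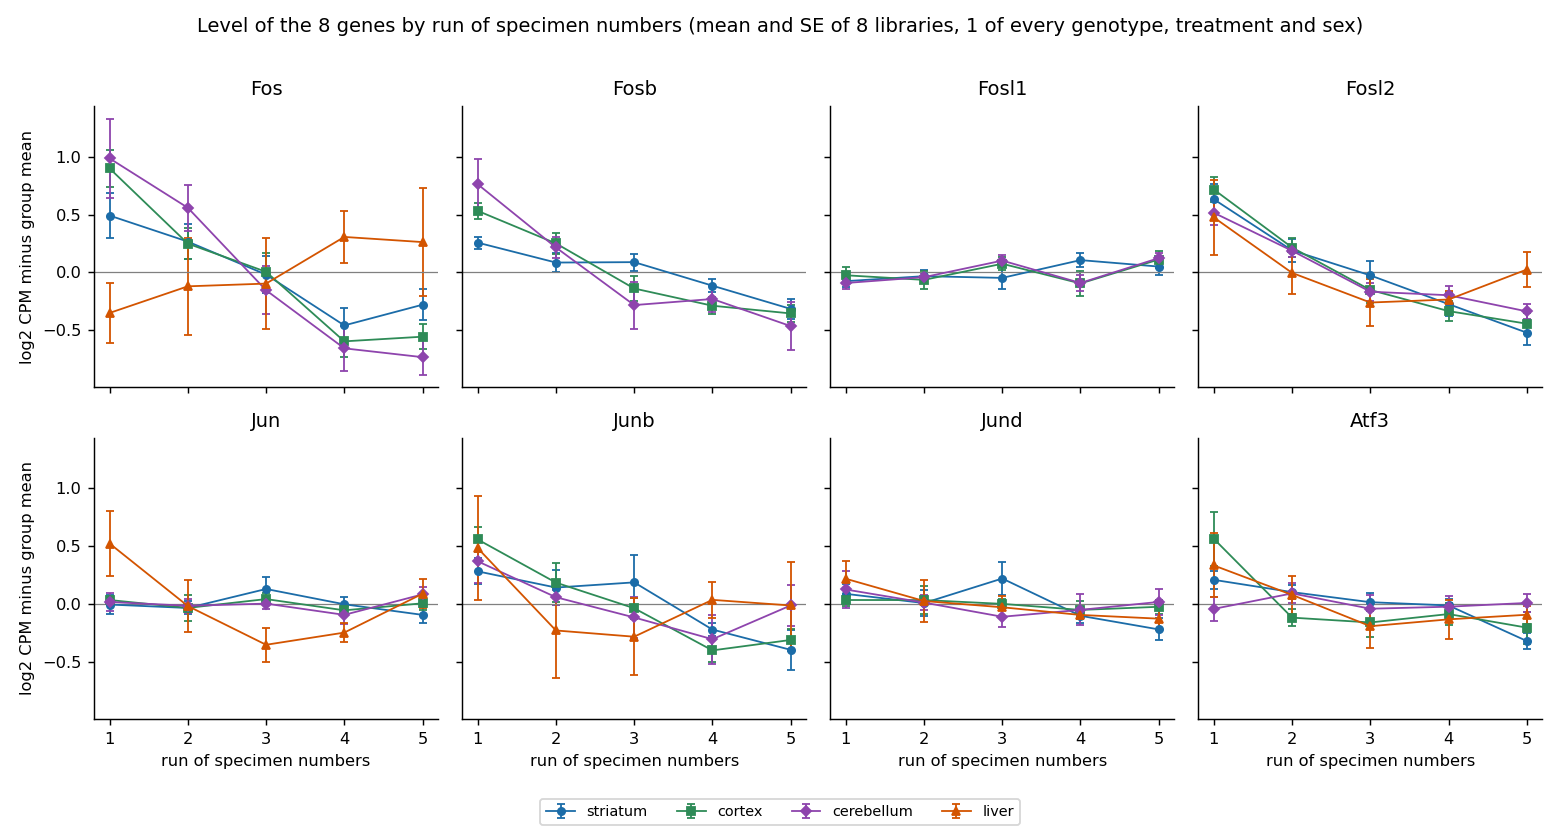
Mean log2 CPM of each gene after removal of group means, by run of specimen numbers, for the 4 tissues (8 libraries a point, SE bars, no liver values for Fosb and Fosl1). Fos, Fosb and Fosl2 are higher in the first run than in the fifth in the 3 brain tissues, by 1.72 for cerebellar Fos, and striatal Jun differs by 0.09.

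The 40 places in the specimen numbers hold the same order of genotype, treatment and sex in all 4 tissues, and libraries at the same place were compared between tissues with group means removed. Of 42 relations of a gene between 2 tissues, 10 passed after adjustment over the 42, all of them among the 24 relations between brain tissues and none of the 18 with the liver. The share over all genes was not computed, so whether this count is particular to the members is not known. Fos at the same place gave Pearson r of 0.80 between striatum and cortex, 0.83 between striatum and cerebellum and 0.88 between cortex and cerebellum, with Spearman rho of 0.77, 0.83 and 0.86, each with a permutation p of 1e-05 for r (the smallest possible) and an adjusted p of 5.2e-05. Fosl2 gave r of 0.93, 0.88 and 0.86 and rho of 0.93, 0.87 and 0.86 for the same pairs, with the same p. Without the 2 places farthest from the median r was 0.78, 0.79 and 0.83 for Fos and 0.91, 0.84 and 0.81 for Fosl2. Within runs, with the run means removed too, r was 0.67, 0.72 and 0.74 for Fos and 0.83, 0.72 and 0.55 for Fosl2. Between striatum and liver r was -0.16 for Fos and 0.30 for Fosl2 (adjusted p = 0.62 and 0.23, permutation). Of the Jun genes Jun alone passed, between cortex and cerebellum (r = 0.48, rho = 0.48, adjusted permutation p = 0.025). Whether libraries at the same place come from 1 animal is not stated in the labels.

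**Figure D5:**
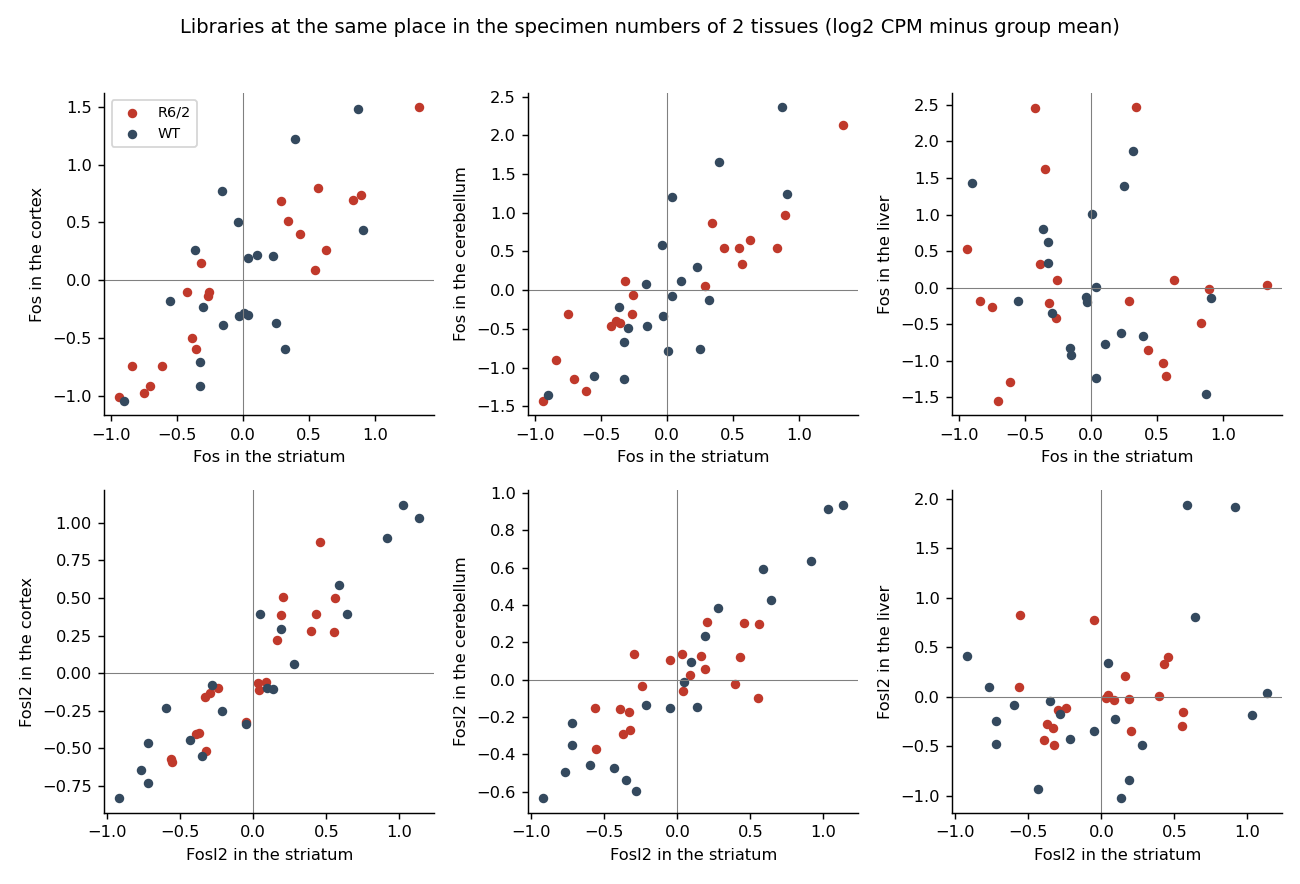
Log2 CPM minus group mean of Fos (upper row) and Fosl2 (lower row) in libraries at the same place in the specimen numbers, striatum on the x axis and cortex, cerebellum or liver on the y axis (40 places, R6/2 red, WT dark grey). With the cortex r is 0.80 for Fos and 0.93 for Fosl2, and with the liver -0.16 for Fos and 0.30 for Fosl2.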

How the data were processed

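Total RNA of flash-frozen tissue was extracted and sequenced on Illumina instruments per the labels' protocols, and CASAVA 1.8.2 is named in the submitters' processing notes. For the aligner, the annotation and the use of strand, the processing is not given in the sources used here. Estimated counts were deposited by the authors for each gene. Of these 68.5% of nonzero values were whole within 1e-06, and all were rounded. The authors also deposited FPKM per gene, and 13 of 160 FPKM columns were closest to the count column of the same header but 160 of 160 to one of the same tissue, genotype and treatment, so FPKM was used by group only. Gene symbols and loci came from GENCODE M21 (GRCm38) for 37607 of 39179 gene IDs. Genes were filtered with filterByExpr, scaled by TMM and tested in edgeR 4.0.16 (R 4.3.3) by the quasi-likelihood test, with genotype, treatment and sex as 8 cell means in each tissue and 32 over all tissues, and Benjamini-Hochberg adjustment over all genes tested in a comparison (17494 in the striatum, 17554 in the cortex, 17206 in the cerebellum, 15145 in the liver and 19446 over all tissues). A member passed at an adjusted p under 0.05, and every adjusted p of a fold change is from that test unless limma or DESeq2 is named. Fold changes are log2 with SE, and CPM is scaled by TMM within a tissue. The other settings tried were a fit in DESeq2 1.42.0, RLE scaling, all genes unfiltered, limma 3.58.1 on log2 FPKM with pseudocounts of 1 and 0.1, blocks, leaving out replicate numbers, and 4 settings chosen after seeing the data. The steps were tested on simulated data. Correlations used 100000 two-sided permutations within groups.

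The 8 genes, the gene lists and the tests were chosen with earlier results of these data known. All 8 genes entered each comparison in which they passed the expression filter, 6 of 8 in the liver, with values for some and counts for the rest. Lists are given by their counts with at most 3 genes per list and comparison named by smallest p, and the genes most like a member by the highest r. Sequencing depth was similar between libraries, and no 2 libraries of a group had identical counts.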

Additional observations from a re-analysis of the deposited data

Results flagged for a closer look

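For 32 combinations of a member and a group of 10 libraries the highest library lay apart from the others by Dixon's test. The test's rate of about 1 in 20 groups holds for normally distributed values. CPM of inducible or low genes is skewed upward, so that rate is no measure of chance here. The values are also not independent because 1 library can be high in several members. In the brain of R6/2 vehicle mice female replicate 4 had 10.9 CPM for Fos (group median 3.47) in the striatum, 37.7 CPM for Fos (group median 12.2) in the cortex and 24.9 CPM for Fos (group median 5.36) in the cerebellum. Female replicate 4 of the WT CHDI-00340246 group had 64.7 CPM for Fos (group median 22.4), 70.2 CPM for Fosl2 (group median 26.3) and 1.38 CPM for Atf3 (group median 0.459) in the cortex, and 60.2 CPM for Fos (group median 10.2) and 2.30 CPM for Fosb (group median 0.497) in the cerebellum. Female replicate 2 of the WT vehicle group had 55.7 CPM for Fos (group median 18.6) and 1.59 CPM for Fosb (group median 0.490) in the cerebellum, and male replicate 5 of that group had 10.2 CPM for Junb (group median 4.31) and 85.8 CPM for Jund (group median 43.7) there. In the cortex male replicate 1 of the R6/2 CHDI-00340246 group had 27.8 CPM for Fosl2 (group median 13.6) and 1.76 CPM for Atf3 (group median 0.556), male replicate 5 of the R6/2 vehicle group had 1.25 CPM for Atf3 (group median 0.473), male replicate 5 of the WT CHDI-00340246 group had 41.6 CPM for Jun (group median 30.2), and female replicate 4 of the WT vehicle group had 1.17 CPM for Atf3 (group median 0.528). In the striatum male replicate 2 of the R6/2 CHDI-00340246 group had 59.3 CPM for Jund (group median 31.5).

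In the liver male replicate 5 of the WT vehicle group had 28.2 CPM for Fosl2 (group median 6.98), 48.7 CPM for Jun (group median 8.78), 58.5 CPM for Junb (group median 11.5) and 35.5 CPM for Jund (group median 16.6). Male replicate 4 of the WT CHDI-00340246 group had 28.3 CPM for Fosl2 (group median 6.61), 27.7 CPM for Jun (group median 8.83) and 81 CPM for Junb (group median 12.3). Male replicate 4 of the R6/2 CHDI-00340246 group had 5.43 CPM for Fos (group median 0.794) and 28.3 CPM for Jund (group median 13.1), and female replicate 2 of the R6/2 vehicle group had 0.260 CPM for Fosb (group median 0.0841) and 11.8 CPM for Jun (group median 6.91). Single members stood apart in female replicate 1 of the R6/2 vehicle group with 7.75 CPM for Fos (group median 1.25), in female replicate 1 of the WT CHDI-00340246 group with 0.266 CPM for Fosl1 (group median 0.0887) and in male replicate 1 of the WT vehicle group with 6.78 CPM for Fos (group median 1.36).

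The genotype effect under vehicle differed between 2 tissues by an edgeR test of the difference itself in 12 of 48 tests. Jun differed by -1.09 (log2) for striatum minus cerebellum, -1.03 for cortex minus cerebellum and 1.61 for cerebellum minus liver. Atf3 differed by -1.15 for cortex minus cerebellum and 0.98 for cerebellum minus liver. Fos differed by -1.44 for striatum minus liver and -1.52 for cerebellum minus liver. Fosl1 differed by -0.47 for striatum minus cortex, -0.87 for striatum minus liver and -0.81 for cerebellum minus liver. Fosl2 differed by -1.07 for striatum minus liver and -1.48 for cortex minus liver. Fosl1 had 3 to 14 counts in R6/2 vehicle liver libraries and 1 to 8 in WT vehicle ones and passed the expression filter only in the fit of all tissues, through the brain groups, so its 2 differences from the liver support nothing and 10 of the 12 remain without them.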

How the results depend on the processing

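Counts of passing members under vehicle stayed within 1.5 times their value in the striatum, cortex and cerebellum under every alternative, among them DESeq2, RLE size factors, no expression filter, FPKM with limma and sex as an additive term. The directions did not stay so close. With the GC slope 3 members were lower and 2 higher in the striatum (6 and 1 without it), 2 lower and 1 higher in the cortex (4 and 0), and 4 lower and 3 higher in the cerebellum (4 and 2). Leaving out 1 replicate number (8 libraries a tissue) gave 6 to 7 of 7 members in the striatum, 3 to 4 of 4 in the cortex, 5 to 6 of 6 in the cerebellum and 0 to 1 of 1 in the liver. Under CHDI-00340246 it gave 4 to 7 of 7, 2 to 4 of 4, 4 to 6 of 6 and 0 to 3 of 3, and without replicate 3 no liver member passed. For the 48 tissue pair tests it gave 8 to 12 for the genotype effect, against 12 with all libraries, and 32 to 35 for the levels, against 33. Correlated pairs within groups numbered 34 to 37, against 44. The striatal count under CHDI-00340246 fell to 4 with library number runs as a term, 4 with FPKM (pseudocount 1) and 3 with the GC slope, and the cortical one to 2 under each of these and with a pseudocount of 0.1. The liver count under vehicle was 0 with no filter, library number runs and both FPKM settings and 2 without the libraries that stood apart, and under CHDI-00340246 it was 1 with no filter, library number runs and both FPKM settings. Specimen number runs as a term left 28 of 44 correlated pairs. The causes of these changes were not tested.

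On the FPKM scale, with pseudocounts of 1 and 0.1, differences in WT vehicle mice reversed to 0.014 and 0.077 (log2) for Atf3 and 0.13 and 0.25 for Fosl2 in cerebellum minus liver, 0.81 and 0.93 for Junb in cortex minus liver, and 0.56 and 0.72 for Jun and 1.01 and 1.15 for Junb in striatum minus liver. With the GC slope as a term, chosen after seeing the data, Jund reversed to 0.30 and 0.28 (R6/2 over WT, vehicle, striatum and cortex), 0.32 and 0.32 (CHDI-00340246) and 0.35 (genotype effect, striatum minus liver), and Jun under CHDI-00340246 to 0.0046 in the striatum and 0.036 in the cortex. Leaving out the libraries that stood apart or the first specimen run and the place of the specimen number as a term were also chosen after seeing the data. The median genotype effect of all genes on the FPKM scale was 0.11 (log2) in the striatum and 0.10 in the liver.

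Libraries of 1 replicate number in different groups of a tissue deviated together over all tested genes with mean correlations of -0.015, 0.023, -0.009 and 0.028 over the 4 tissues. Libraries of 1 specimen run gave means of only 0.010, 0.031, 0.019 and 0.021, although Fos and Fosl2 differed between runs in the brain. Such means therefore cannot decide whether the replicate numbers pair the libraries. With a replicate block 7, 4, 6 and 0 members passed under vehicle and 7, 4, 5 and 2 under CHDI-00340246 in the striatum, cortex, cerebellum and liver, with 0 for the drug comparisons. Depth limits the liver values of Fosb and Fosl1 and, less, Atf3, and counting error is only part of the spread between libraries.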

Other observations

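In mice given CHDI-00340246, libraries that the vehicle comparison does not use, the lists around AP-1 gave these counts in R6/2 against WT. Other immediate early genes gave 0 up and 14 down of 19 in the striatum, 0 up and 14 down of 19 in the cortex, 2 up and 10 down of 17 in the cerebellum and 1 up and 2 down of 14 in the liver. Kinases and factors upstream of AP-1 gave 2 up and 11 down of 21 in the striatum, 2 up and 10 down of 21 in the cortex, 4 up and 6 down of 21 in the cerebellum and 2 up and 2 down of 20 in the liver. Other bZIP genes gave 4 up and 7 down of 22 in the striatum, 4 up and 10 down of 22 in the cortex, 5 up and 6 down of 21 in the cerebellum and 4 up and 6 down of 23 in the liver. AP-1 target genes gave 1 up and 5 down of 11 in the striatum, 1 up and 8 down of 13 in the cortex, 2 up and 3 down of 12 in the cerebellum and 2 up and 1 down of 13 in the liver. Neuronal injury genes gave 2 up and 8 down of 12 in the striatum, 2 up and 5 down of 11 in the cortex, 2 up and 6 down of 10 in the cerebellum and 0 up and 2 down of 7 in the liver. Of all genes 29.7% rose and 28.4% fell in the striatum, 29.2% and 27.9% in the cortex, 27.9% and 26.7% in the cerebellum and 15.1% and 13.7% in the liver, and many of these list shares are near them. Egr3, a zinc finger gene induced by activity, averaged 12.7 ± 3.97 CPM in R6/2 and 36.5 ± 6.62 CPM in WT (-1.52 ± 0.14 on the log2 scale) in the striatum. Dusp5 averaged 13.4 ± 2.60 CPM in R6/2 and 89.6 ± 18.04 CPM in WT (-2.75 ± 0.14 on the log2 scale) in the cerebellum. Sox11 averaged 1.01 ± 0.319 CPM in R6/2 and 0.352 ± 0.131 CPM in WT (1.54 ± 0.20 on the log2 scale) there. In the liver Cdkn1a, the cell cycle inhibitor p21, averaged 5.92 ± 6.15 CPM in R6/2 and 1.46 ± 1.05 CPM in WT (2.07 ± 0.43 on the log2 scale), and Cebpb, a liver bZIP factor of the acute phase, averaged 11.9 ± 4.64 CPM in R6/2 and 28.5 ± 13.3 CPM in WT (-1.19 ± 0.22 on the log2 scale). All of these named genes passed at an adjusted p under 0.05 by edgeR.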
